A study of Mus musculus with 2 samples.

Results

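The 5 genes Cyp21a1, Hsd3b1, Hsd3b6, Cyp17a1 and Por encode steroid enzymes of the endoplasmic reticulum and their electron donor, and they were 5 of 21802 protein-coding genes examined. They were chosen by the measured peaks of these same 2 libraries, as genes of this pathway whose promoters seemed to hold no accessible region. The values that chose them are therefore described here with no test. Open chromatin was measured by DNase-seq, in which the enzyme DNase I cuts accessible DNA in nuclei. The libraries formed 1 group of 2 samples, biological replicates 1 and 2. Both came from adrenal gland tissue of B6CASTF1/J mice, adult males aged 18 to 20 months, and the labels name no treatment. B6CASTF1/J is an F1 hybrid strain, so each cell carries an allele from each parental strain, while all peaks are placed on the one reference. The labels name separate tissue samples but 1 donor entry, so the spread between replicates may be only that between pieces or libraries.

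Steroid hormones are made from cholesterol in steps split between mitochondria and the smooth endoplasmic reticulum. Side-chain cleavage in mitochondria gives pregnenolone, which 3-beta-hydroxysteroid dehydrogenases (Hsd3b1 and Hsd3b6 in steroid-making tissues) turn into progesterone. The 21-hydroxylase Cyp21a1 then makes deoxycorticosterone, which returns to mitochondria to become corticosterone or aldosterone. Cyp17a1, the 17-alpha-hydroxylase and 17,20-lyase, leads to cortisol and androgens, and the adult mouse adrenal cortex is known for making little of it. Both P450 enzymes take electrons from P450 oxidoreductase, the product of Por, which serves every microsomal P450 in the body.

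A region below is a stretch covered by peaks of the authors' longer list in either library, joined where they overlap by at least 1 bp. It is called shared when it holds a peak of both libraries. A promoter is the sequence within 1 kb of the start of a protein-coding transcript. Peak height is the authors' signal, whose scale the files do not define. It is taken here to be normalised for depth, on which every comparison of heights between the libraries rests, and it is given as mean ± SD over n = 2 libraries unless a single library is named. Footprints are short protected stretches called by the authors. Replicate 1 stood apart in holding many low peaks with a very low false discovery rate (FDR), and what rests on them is said with the values for Cyp21a1 and Por. In bulk tissue, fewer cells of a type and less accessibility in each cell cannot be told apart.

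Only Por, of the 5 genes, had a shared promoter region, against 64.5% of all genes, so the description of closed promoters did not hold for Por. Cyp21a1, Hsd3b1 and Cyp17a1 had no peak of either library within 1 kb of any start. Hsd3b6 lay between: each library had a low peak at its start, and the peaks touched without overlapping. Counting a peak of each library in the same 1 kb, whether or not they overlapped, gave 2 of the 5 genes, Hsd3b6 and Por, against 64.8% of all genes. The authors' FDR files gave the same 2 genes, against 65.5%, when at least 1 position at an FDR under 0.05 was asked of both libraries. Since the genes were chosen for these values, nothing is read from the difference.

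The promoters of the genes that had an entry in the RefSeq promoter table (GRCm38.p6; 3 of the 5, Hsd3b1, Hsd3b6 and Por) are printed first, because they show side by side a promoter with no footprint, one with footprints of 1 library and one with many. Each runs 5′ to 3′ on the strand of its gene, from 250 bases before the start to 50 after it. Capitals mark bases in a footprint of either library.
Hsd3b1, chr3:98859745-98860044, minus strand: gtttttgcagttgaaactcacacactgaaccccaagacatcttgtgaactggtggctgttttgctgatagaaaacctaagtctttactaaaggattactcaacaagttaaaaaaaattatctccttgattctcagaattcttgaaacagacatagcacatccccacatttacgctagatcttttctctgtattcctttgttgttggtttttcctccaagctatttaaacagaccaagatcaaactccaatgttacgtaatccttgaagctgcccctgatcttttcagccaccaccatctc
Hsd3b6, chr3:98814394-98814693, minus strand: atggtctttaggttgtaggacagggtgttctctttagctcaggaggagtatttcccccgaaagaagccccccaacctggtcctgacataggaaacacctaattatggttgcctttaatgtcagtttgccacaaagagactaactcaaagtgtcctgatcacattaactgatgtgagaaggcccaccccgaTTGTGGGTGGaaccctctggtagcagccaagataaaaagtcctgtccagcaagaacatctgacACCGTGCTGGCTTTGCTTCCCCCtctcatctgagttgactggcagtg
Por, chr5:135688895-135689194, plus strand: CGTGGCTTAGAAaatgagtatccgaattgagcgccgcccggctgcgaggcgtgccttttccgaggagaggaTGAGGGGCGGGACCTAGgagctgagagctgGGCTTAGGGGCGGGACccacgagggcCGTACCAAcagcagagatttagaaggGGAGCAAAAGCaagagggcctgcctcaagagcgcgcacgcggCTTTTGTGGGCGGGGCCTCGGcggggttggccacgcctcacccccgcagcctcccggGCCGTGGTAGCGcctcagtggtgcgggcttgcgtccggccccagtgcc
The Hsd3b1 promoter was 38.7% G and C with 2 CpG dinucleotides, the Hsd3b6 promoter 49.0% with 3, and the Por promoter 67.3% with 27. The median RefSeq promoter had 52.7% and 7. The Hsd3b1 and Hsd3b6 promoters matched at 177 of 353 aligned columns, 50.1%. Aligned the same way to the Por promoter, Hsd3b1 matched at 46.0% and Hsd3b6 at 49.0%, so 50.1% is near the level between different genes. The end of the Hsd3b1 gene, by contrast, matches Hsd3b6 at 88.2% over 1032 bp. None of the 300 bases at Hsd3b1 lay in a footprint, 33 did at Hsd3b6 and 97 did at Por.

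Away from the starts, 5 regions near Cyp21a1 and Cyp17a1 had peaks in both libraries and belonged to no other gene's promoter. The 4 tallest are printed, as the nearest shared accessible sequence to these genes, and the fifth is chr19:46628417-46628697. They are given on the plus strand of GRCm38, and capitals mark bases in footprints of both libraries.
Downstream of Cyp21a1, chr17:34795821-34796000: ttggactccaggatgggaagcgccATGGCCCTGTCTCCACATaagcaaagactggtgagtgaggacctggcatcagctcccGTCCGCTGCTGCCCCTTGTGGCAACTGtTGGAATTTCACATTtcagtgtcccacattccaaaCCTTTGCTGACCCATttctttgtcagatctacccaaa
Upstream of Cyp21a1, chr17:34813861-34814020: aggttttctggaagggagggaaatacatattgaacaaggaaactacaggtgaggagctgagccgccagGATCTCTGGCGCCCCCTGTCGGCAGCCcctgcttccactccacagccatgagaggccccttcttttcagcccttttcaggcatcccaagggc
Inside Cyp17a1, chr19:46670781-46670980: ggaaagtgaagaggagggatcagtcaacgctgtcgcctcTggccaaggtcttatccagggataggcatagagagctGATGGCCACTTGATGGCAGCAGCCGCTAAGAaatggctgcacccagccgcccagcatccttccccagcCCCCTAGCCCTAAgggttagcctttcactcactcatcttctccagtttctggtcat
Downstream of Cyp17a1, chr19:46641781-46641980: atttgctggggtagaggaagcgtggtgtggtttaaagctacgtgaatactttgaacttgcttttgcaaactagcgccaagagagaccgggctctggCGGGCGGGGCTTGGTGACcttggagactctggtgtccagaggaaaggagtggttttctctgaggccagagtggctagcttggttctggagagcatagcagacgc
The first held 74 bases in shared footprints, the second 27, the third 45 and the fourth 18.

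**Figure D1:**
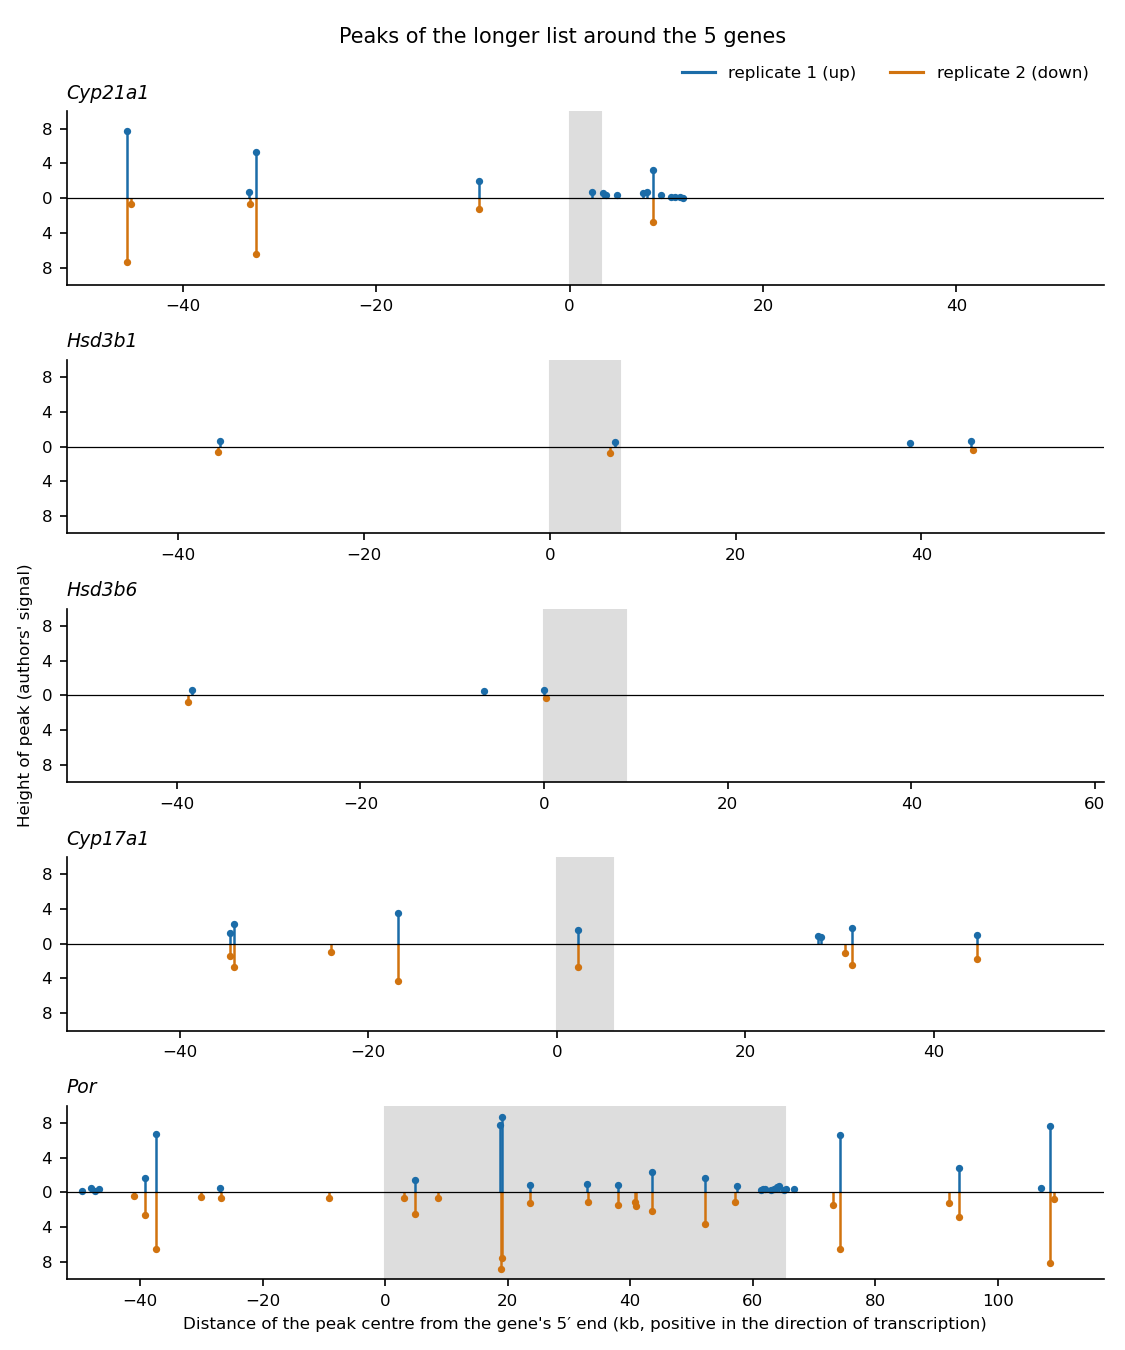
Heights of all peaks of the longer list in the gene body (grey) and 50 kb on each side, for replicate 1 (blue, upward) and replicate 2 (orange, downward), against the distance of the peak centre from the gene's 5′ end in kb. Por has peaks of 8.63 and 8.86 at its main start, while Hsd3b1 and Hsd3b6 have no peak above 0.757 in either library.

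Hsd3b1 and Hsd3b6 stood in the emptiest windows. Hsd3b1 (ENSMUSG00000027871.16, chr3:98852194-98859794, minus strand, 1 coding start) had 4 regions of replicate 1 alone, 3 of replicate 2 alone and 0 shared within 50 kb. Hsd3b6 (ENSMUSG00000027869.14, chr3:98805504-98814443, minus strand, 2 coding starts) had 3, 2 and 0, several of them the same regions, since the genes are neighbours. Of all genes, 12.2% also had 0 shared regions in such a window, and the median gene had 7. Footprints shared by the libraries numbered 0 in either window, against a median of 13. Peak heights in these windows ran from 0.367 to 0.757, and none of these peaks had an overlapping peak in the shorter list of its library.

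The peaks nearest to the Hsd3b1 start lay at the far end of the gene. In replicate 1 the nearest was at chr3:98852721-98852900, 6894 bp downstream, with a height of 0.558. In replicate 2 it was at chr3:98853233-98853289, 6505 bp downstream, with a height of 0.757. Both lay in the last exon, 332 bp apart, in the stretch that resembles Hsd3b6. Within 1 kb of the start, 0 positions reached an FDR under 0.05 in either library.

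At Hsd3b6 the peak of replicate 1 covered the gene's 5′ start (chr3:98814341-98814560, height 0.648) and that of replicate 2 began 103 bp inside the gene (chr3:98814201-98814340, height 0.367). The first ended, on the gene's strand, where the second began, with 0 bases between them. Beside that boundary, at chr3:98814347-98814395, lay a run of 49 bases in which each base equals the one 3 before it. Within 1 kb of this start, 227 positions of replicate 1 and 205 of replicate 2 had an FDR under 0.05, and the lowest value in each library's own peak was 0.00105 in replicate 1 and 0.00374 in replicate 2. No footprint was shared by the libraries. Replicate 1 had 2, both in its peak, and replicate 2 had 2 just outside its peak, at chr3:98814151-98814159 and chr3:98814188-98814197. The other coding start of Hsd3b6, at position 98811108, had these same peaks as its nearest, 3233 bp and 3093 bp upstream.

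The other members of the family, most of which serve liver and kidney, were also without peaks on this chromosome. Hsd3b2, Hsd3b3, Hsd3b4 and Hsd3b5 had 0 peaks in the gene body in both libraries. For Hsd3b4 all 36-base and 76-base stretches of the body (100%) occur more than once in the genome, and for Hsd3b3 32.2% and 17.7% do, so the part of repeats in their missing peaks was not tested. Hsd3b7, on chromosome 7, acts in bile acid synthesis and is not a steroid hormone enzyme. It had a shared promoter region of 6.41 ± 0.789, with 6.97 in replicate 1 and 5.85 in replicate 2. So 1 of the 7 family members in the annotation, 14.3%, had a shared promoter region, against 64.5% of all genes.

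Cyp21a1 (ENSMUSG00000024365.9, chr17:34801348-34804561, minus strand, 1 coding start) had no peak at its start and lay in a block of the genome that is present more than once. In replicate 1 the nearest peak was at chr17:34802141-34802289, 2272 bp downstream in an exon, with a height of 0.690. In replicate 2 it was 8561 bp downstream, beyond the end of the gene, in the shared region chr17:34795821-34796000. Within 1 kb of the start, 0 positions reached an FDR under 0.05 in either library.

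The shared region downstream of Cyp21a1 had heights of 3.25 in replicate 1 and 2.78 in replicate 2 (3.02 ± 0.334), higher than 80.4% of shared regions of the genome. It lay inside the tenascin pseudogene Tnxa and held 4 footprints of both libraries. Its lowest FDR was 1.39e-213 in replicate 1 and 1.35e-06 in replicate 2, although the heights were close. Of its 36-base stretches 48.3%, and of its 76-base stretches 26.7%, occur more than once in the genome. The part of repeats in this region was not tested. Upstream, 9300 bp from the start and inside the complement gene C4a, the region chr17:34813861-34814020 had 1.96 and 1.29 (1.63 ± 0.477), with 1 shared footprint. In both regions replicate 1 was the higher, whereas in the rest of the genome's shared regions the median log2 ratio of replicate 1 to replicate 2 was -0.12. The tallest regions of the window, 7.55 ± 0.299 at Skiv2l and Nelfe and 5.88 ± 0.832 at Stk19 and Dxo, were promoters of those neighbours, 45600 bp and 32320 bp upstream.

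Replicate 1 had a run of 11 further low regions from Cyp21a1 through Tnxa that replicate 2 did not list. Their heights were 0.0637 to 0.717 (median 0.356), and 10 of the 11 were also in the shorter list of replicate 1. The peak in the Cyp21a1 exon reached an FDR of 4.74e-70, although its height was only 0.690. In all, 7018 bp of the 103214 bp window (6.80%) had an FDR under 0.05 in replicate 1 and 3080 bp (2.98%) in replicate 2.

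Such a pairing of a low height with a very low FDR set replicate 1 apart across the genome. Of its 61708 peaks with a height below 1, 1188 (1.93%) held an FDR under 1e-20, against 65 of 73376 (0.0886%) in replicate 2. Around Cyp21a1, 7 of 12 such low peaks of replicate 1 did so, and 0 of 2 in replicate 2. Around Por it was 2 of 20 and 0 of 7, and around the other members 0 in both libraries. The part of this peak population in the results for Cyp21a1 and Por was not tested. Leaving replicate 1 out takes away all 11 regions of the run, while the shared regions named above carry a peak of replicate 2 as well. The replicate 1 peak in the shared region downstream of Cyp21a1 was left out of these counts by definition, since its height was 3.25. Its lowest FDR was 1.39e-213, against 1.35e-06 at a height of 2.78 in replicate 2. Whether that peak belongs with this peak population was not tested.

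**Figure D2:**
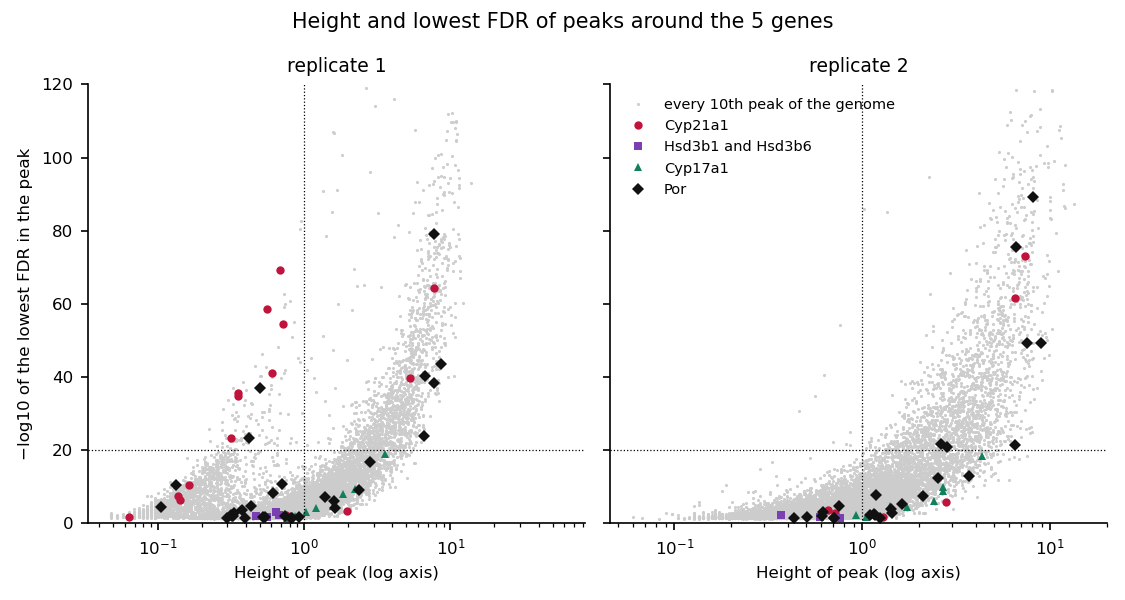
Height of each peak of the longer list (log axis) against −log10 of the lowest FDR inside it, for each library. Grey points are every 10th peak of the genome, coloured points the peaks around the 5 genes, and dotted lines mark a height of 1 and an FDR of 1e-20. The vertical axis ends at 120, so the replicate 1 peak at chr17:34795821-34796000, with an FDR of 1.39e-213, lies beyond it. In replicate 1 a second band of low peaks with low FDR appears, which holds 7 peaks around Cyp21a1.

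Repeated sequence was measured as the share of 36-base and 76-base stretches that occur more than once in the reference on either strand. Around the Cyp21a1 start, 28.6% of 36-base stretches and 10.2% of 76-base stretches were not unique. Of the 5 genes, 1 reached 10% of 36-base stretches, against 17.8% of all genes, and 1 reached 10% of 76-base stretches, against 9.97%; in both it was Cyp21a1. The sequence around its start matched the pseudogene Cyp21a2-ps, at chr17:34721990-34723355, at 96.4% over 1366 bp. A start with repeated sequence can lose reads that fit more than 1 place, and how the authors treated such reads is not given in the sources used here, so the part of repeats in the missing Cyp21a1 peak was not tested. For the other members the shares of 76-base stretches at the starts were 0 to 0.950%. At the Cyp17a1 starts the shares of 36-base stretches were 0% and 3.70%.

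The copies of the Cyp21a1 block differed between the libraries in opposite directions. Replicate 1 listed 23 peaks in C4b, the other complement C4 gene of the block, with heights of 0.170 to 0.775, and replicate 2 listed 1 there, of 1.15. At Cyp21a2-ps replicate 1 listed 0 peaks and replicate 2 listed 3, with heights of 0.337 to 0.412. At C4a each library listed 1 peak. All 11 of the replicate 1 regions near Cyp21a1 held 36-base stretches that are not unique, from 15.3% to 77.5% of each region. Their median, 24%, was below the share over the whole Cyp21a1 window and below the 39.2% of the Cyp21a1 gene body. Around Por, where the share in the gene body was 5.54%, only 1 of the 15 regions of replicate 1 alone held any. Whether the regions of replicate 1 alone go with repeats was not tested.

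**Figure D3:**
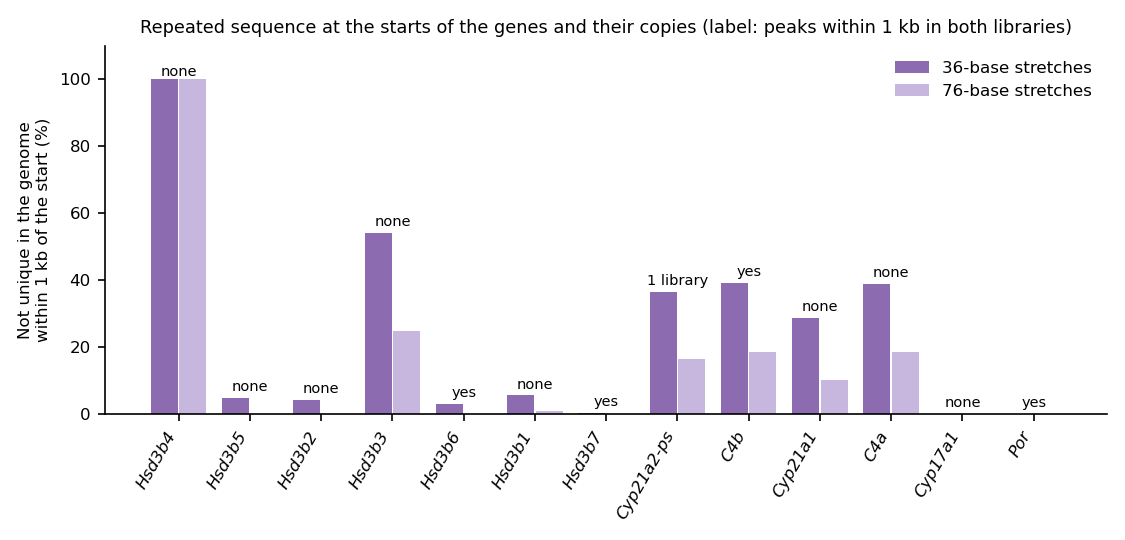
Share of 36-base (dark) and 76-base (light) stretches within 1 kb of the start that occur more than once in the genome, in percent, for the members and their copies. Labels say whether each library listed a peak there. Cyp21a1 has 28.6% and 10.2%, and Hsd3b4 has 100% of both. Cyp17a1 and Por are shown at positions 46672974 and 135689036.

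Cyp17a1 (ENSMUSG00000003555.8, chr19:46667165-46673172, minus strand, 2 coding starts) had 1 shared region inside the gene and none at its coding starts. That region, chr19:46670781-46670980, lay mostly in an intron, 1994 bp from the nearer start in replicate 1 and 2014 bp in replicate 2. Its heights were 1.58 in replicate 1 and 2.67 in replicate 2 (2.13 ± 0.769). It held 3 footprints of both libraries, the printed capitals, which is every footprint listed there. At the first of them, chr19:46670810-46670827, the footprints of the libraries overlapped by only 1 bp, the lone capital T. A Cyp17a1 transcript that the annotation gives as a retained intron starts within 1 kb of it, at position 46671291. Within 1 kb of the coding starts, 0 positions had an FDR under 0.05 in either library.

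Shared regions lay inside the gene body in 2 of the 5 genes, Cyp17a1 with 1 and Por with 7, against 70.0% of all genes. The other shared regions near Cyp17a1 belonged to its neighbours. In introns of Wbp1l, downstream, 2 regions had 2.13 ± 0.387 (1.85 and 2.40) at chr19:46641781-46641980 and 1.38 ± 0.500 (1.02 and 1.73) at chr19:46628417-46628697. Upstream, the promoter of Borcs7, a subunit of a lysosome-positioning complex, had 3.95 ± 0.511, and 2 regions at the promoter of As3mt, an arsenic methyltransferase, had 2.45 ± 0.315 and 1.30 ± 0.138. Replicate 2 was the higher in all 6 shared regions of this window. The window held 10 footprints of both libraries, against a median of 13 for all genes, and 42.3% of genes had fewer shared regions.

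Por (ENSMUSG00000005514.14, chr5:135670033-135735326, plus strand, 5 coding starts) had one of the tallest promoters. The region chr5:135688721-135689260, over the starts at positions 135689036 and 135689158, had 8.63 in replicate 1 and 8.86 in replicate 2 (8.75 ± 0.164), above 99.0% of shared regions. Among the 14066 genes with a shared promoter region, the median height of the tallest was 3.90. Each library listed 2 overlapping peaks there, and 10 footprints were shared. Positions with an FDR under 0.05 within 1 kb of the first of these starts numbered 1097 in replicate 1 and 879 in replicate 2.

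The 3 other starts of Por were less accessible. At position 135674585 a peak began 316 bp downstream in replicate 1 and 296 bp in replicate 2, in the shared region chr5:135674881-135675080, with 1.39 and 2.52 (1.95 ± 0.802). At the gene's 5′ end, position 135670033, the nearest peaks were 4868 bp away in replicate 1 and 3082 bp in replicate 2, and no position within 1 kb passed an FDR of 0.05. At position 135725728 they were 1656 bp and 1333 bp away. Whether a promoter is counted as open for Por therefore depends on the start: taking the gene's 5′ end alone, Por had no shared promoter region.

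Inside the body of Por lay 5 more shared regions. The tallest was chr5:135722201-135722400, with 1.64 in replicate 1 and 3.70 in replicate 2 (2.67 ± 1.46), the widest gap between the libraries of the 24 shared regions (log2 ratio -1.18). At chr5:135713441-135713700 the heights were 2.38 and 2.11 (2.25 ± 0.196). The other 3 were between 1.01 and 1.12 on average. All 5 lay in introns.

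At the 3′ end of Por, replicate 1 listed a run of low regions that replicate 2 did not, 8 of them inside the gene with heights of 0.297 to 0.743. Farther upstream of Por it listed 4 more, of 0.106 to 0.499. Replicate 2 alone had 5 regions inside the gene, of 0.705 to 1.63. Of the neighbours, the promoters of Rhbdd2 (6.65 ± 0.124), Tmem120a (6.54 ± 0.0449) and the pair Styxl1 and Mdh2 (7.90 ± 0.293) were shared, with log2 ratios of replicate 1 to replicate 2 of 0.04, 0.01 and -0.08. An intron of Styxl1 had 2.82 ± 0.0169. The window of Por held 39 shared footprints and 13 shared regions, and 82.8% of genes had fewer shared regions.

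Over the windows of all 5 genes there were 73 regions, of which 24 were shared (32.9%), 32 were of replicate 1 alone (43.8%) and 17 of replicate 2 alone (23.3%). Genome-wide, 45.7% of 143793 regions were shared, 20.2% were of replicate 1 alone and 34.0% of replicate 2 alone. Of the 32 regions of replicate 1 alone, 11 were around Cyp21a1 and 15 around Por. The median log2 ratio of replicate 1 to replicate 2 in the 24 shared regions was -0.24 (SD 0.417 across regions, which are not replicates), with 7 higher in replicate 1 and 17 in replicate 2. Over all 65778 shared regions it was -0.12 with an SD of 0.457. Depth cannot be compared directly, since read totals were not used here. Replicate 1 had 98630 peaks and replicate 2 had 118249.

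Consensus motifs were searched on both strands in the RefSeq promoters and in the 200 bp at the centre of each shared region. The NR5A1 motif, that of the steroidogenic factor SF-1, was searched as CCAAGGTCA and CCAAGGCCA, each also with T as its first letter. It occurred in 3.12% of shared regions and 2.22% of RefSeq promoters. One match, CCAAGGTCA on the minus strand at chr19:46641891-46641899, lay in the Wbp1l intron region downstream of Cyp17a1, and 4 of its 9 bases were in footprints of both libraries. The other, CCAAGGCCA at chr5:135707948-135707956 in an intron of Por, touched no footprint. No exact NR5A1 match lay in the printed promoters of Hsd3b1, Hsd3b6 and Por, nor in the regions beside Cyp21a1 or inside Cyp17a1. A mismatch was allowed only for CTCF, below. Near matches to NR5A1, such as CCAAGGTCT inside Cyp17a1 and CCAAGATCA in the Hsd3b1 promoter, were therefore not counted.

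The Por promoter held 4 matches to GGGCGG, the SP/KLF motif, of which 3 touched footprints of both libraries. That motif was in 35.6% of RefSeq promoters. The GATA motif was searched as AGATAA and, with the last letter changed, as AGATAG. It was in 18.6% of RefSeq promoters, and the Hsd3b1 and Hsd3b6 promoters each held a match to its first form, outside any footprint. The Hsd3b1 promoter also held CCAAT, found in 37.4% of promoters, again outside any footprint. The CTCF motif was a 12-base form of its consensus, and it was in 8.49% of shared regions. Upstream of Por, CCACTAGGGGGC at chr5:135630803-135630814 lay wholly in footprints of both libraries, in a region of 2.11 ± 0.708 (chr5:135630701-135630900). With 1 mismatch allowed, a form added after the sequences were seen and present in 25.5% of shared regions, CCACTTGATGGC at chr19:46670862-46670873 lay wholly in the longest shared footprint inside Cyp17a1. Matches of this form at chr5:135632613-135632624 and chr5:135763728-135763739, near Por, also lay wholly in shared footprints, and the one at chr19:46707880-46707891 had 0 bases in footprints of both libraries. The cAMP response element TGACGTCA, in 1.11% of shared regions, lay in footprints of both libraries at the Styxl1 and Mdh2 promoter. No match to these motifs, nor to AP-1 (TGACTCA, in 7.53% of shared regions), TATAAA (4.39%) or the NFI motif (0.147%), lay in the regions beside Cyp21a1. AP-1 matches lay in 5 shared regions of the Cyp17a1 and Por windows. At chr5:135713608-135713614 in an intron of Por each library had a footprint touching the match, but 0 of its bases were in footprints of both.

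Other genes of the pathway were open. All 6 genes of the mitochondrial steps had a shared promoter region, against 64.5% of all genes. Fdxr, the ferredoxin reductase, had 6.55 ± 0.660, its ferredoxin Fdx1 4.85 ± 0.120, the side-chain cleavage enzyme Cyp11a1 2.63 ± 0.658 and the cholesterol carrier Star 1.94 ± 0.177. The 11-beta-hydroxylase Cyp11b1 had 1.37 ± 0.249, and the aldosterone synthase Cyp11b2 had the lowest, 0.212 ± 0.0454. The Cyp11b2 peaks, 0.244 in replicate 1 and 0.180 in replicate 2, overlapped. The taller peaks at the Hsd3b6 start, 0.648 and 0.367, only touched, so Hsd3b6 was not counted as shared. The starts of Cyp11b1 and Cyp11b2 had 21.5% and 22.9% of 36-base stretches not unique, and each had 16.2% of 76-base stretches not unique.

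A further list of 13 genes was drawn up as partners of Por and endoplasmic reticulum enzymes of sterol and steroid metabolism. The list is loose, and not every gene on it, Hmox1 and Cyb5b for example, fits that description. Of the 13, 12 had a shared promoter region, against 64.5% of all genes. The exception was Hsd17b3, the androgenic dehydrogenase of testis. Cytochrome b5 (Cyb5a), which aids the lyase reaction of Cyp17a1, had 5.88 ± 0.169, and its reductase Cyb5r3 5.69 ± 1.24. H6pd, which makes NADPH inside the reticulum, had 5.20 ± 0.550, and the corticosterone-regenerating enzyme Hsd11b1 had 1.77 ± 0.644. The highest was Dhcr7, of cholesterol synthesis, with 8.43 ± 0.545, close to the 8.75 of Por, and the lowest Hsd11b2, with 1.08 ± 0.00680.

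**Figure D4:**
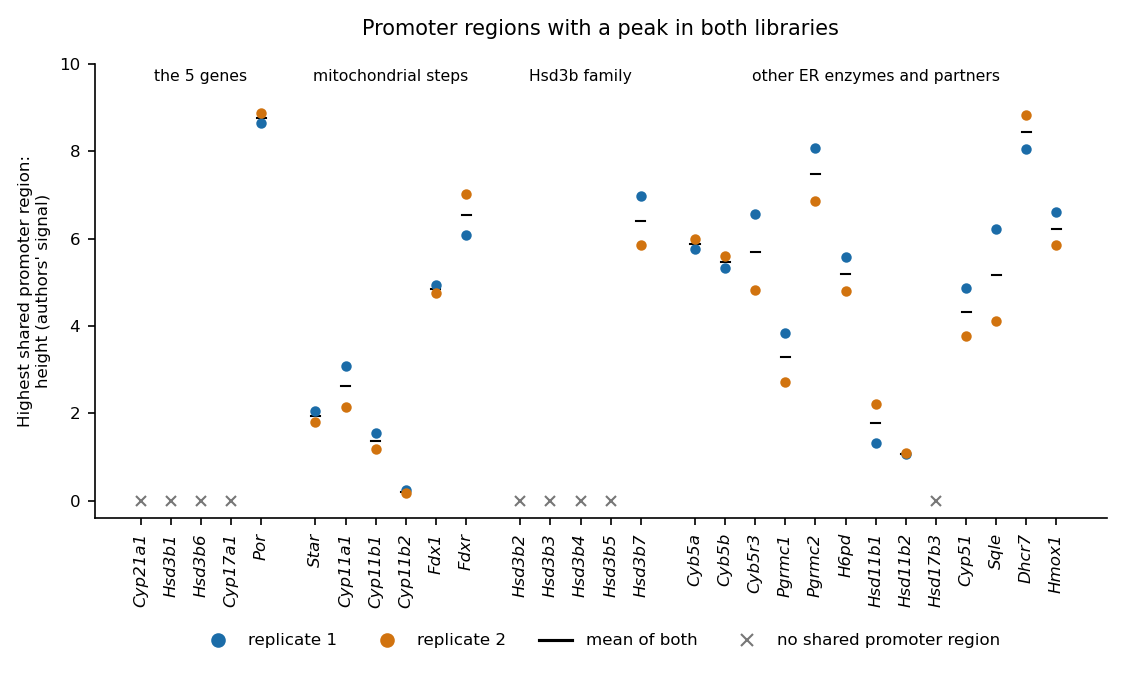
Height of the tallest shared promoter region of each gene in replicate 1 (blue) and replicate 2 (orange), with the mean as a bar, for the 5 genes and the pathway lists. Crosses at 0 mark genes with no shared promoter region, not a measured height of 0. Por and Dhcr7 are the highest, while Cyp21a1, Hsd3b1, Hsd3b6 and Cyp17a1 are crosses next to 6 of 6 mitochondrial genes with a region. Hsd3b6 is a cross although each library has a peak at its start, because these peaks touch without overlapping.

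The tissue label was checked on marker lists. Of 8 genes that mark the cortex, 7 had a shared promoter region, among them Nr5a1 (1.98 ± 0.197) and Akr1b7 (1.38 ± 0.0705), and the exception was the corticotropin receptor Mc2r. Of the medulla markers, Th, Dbh and Pnmt had no shared promoter region, while Chga had 1.79 ± 0.256, Chgb 3.74 ± 0.0469 and Slc18a1 10.9 ± 2.29. For adipocytes it was 5 of 6 and for endothelium 5 of 6, for liver 1 of 6, for kidney 2 of 6, for macrophages 2 of 6 and for testis 2 of 6, beside the 64.5% of all genes.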

How the data were processed

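DNase-seq peaks, footprints and false discovery rates had been made by the authors for each library from an alignment to mm10, per the labels and the deposited index text. The sources used here do not give the read length, the aligner or the callers. Peak heights are a signal deposited by the authors on a scale the files do not define, taken here as normalised for depth. The footprint score deposited by the authors was 0.01 in every row and was not used. The FDR deposited by the authors, a q-value per stretch, was listed only under 0.05. The longer of 2 peak lists per library was used, with the shorter as an alternative. The members, gene lists and motifs were chosen with earlier results of these data known. With 1 group of 2 libraries, no test was made.

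Regions were formed from overlapping peaks of both libraries (at least 1 bp) on chromosomes 1 to 19, X and Y, and annotated with GENCODE vM21, which uses that build. Windows were the gene body and 50 kb on each side. Genes were named by position or by list: the members, every region at their starts or in their bodies, the 3 tallest shared regions, neighbours and gene copies. Python 3.11.15, pandas 2.3.3, bedtools 2.31.1 and blastn 2.17.0 were used. The counting of repeated stretches was tested on simulated sequence. Alternatives were the shorter list, other flanks, promoter widths and overlaps, and each library alone. The alleles of the hybrid mice were not examined, and a region without a peak is described as not listed. One marker result is not reported here.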

Additional observations from a re-analysis of the deposited data

How the results depend on the processing

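With no counts or read totals, precision rests on the 2 libraries. The members with a shared promoter region, 1 as reported, became 2 within 5 kb of a start, 0 with the gene's 5′ end as the only start, 2 with touching peaks joined (chosen after seeing the data) and 2 in each library alone. The 24 shared regions became 12 with 20 kb flanks, 49 with 100 kb flanks, and 41 to 56 regions in single libraries. The 64 shared footprints became 33 and 127 with those flanks and 127 to 135 in single libraries. These counts follow from fewer or more bases, or from asking for only 1 library. With touching peaks joined, 64.5% of all genes had a shared promoter region. For the other promoter settings the share of all genes is not given here, so those counts say nothing particular to the members. The shorter list gave 1 member, 18 shared regions and a median log2 ratio of -0.15, against -0.24 with the longer. With 100 kb flanks that ratio was -0.04, nearer to 0 than the -0.12 of the genome, and with 20 kb flanks -0.26. Of 29 alternative values, 16 kept their value within the limits set. The shorter list was not fully contained in the longer: 970 of 62110 peaks (1.56%) of replicate 1 and 885 of 72815 (1.22%) of replicate 2 had no overlapping peak there, 1 of them at chr5:135779021-135779380. No paired analysis was possible because there was only 1 group.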
